A study of Mus musculus with 51 samples.

Results

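The 6 arrays at 0.25 pmol of spiked RNA per gene were set against the 6 unspiked arrays at 0 pmol. These 12 arrays, chosen by the amount in their titles, are part of a series of 51 arrays. Every hybridisation was a self-hybridisation on a spotted 2-colour array: both channels held RNA of CRL1606, a mouse hybridoma from ATCC. This line came from BALB/c spleen cells fused with the P3-X63-Ag8 myeloma, secretes an antibody against human fibronectin, and was grown in suspension in shake flasks in serum-free medium based on IMDM. At 0.25 pmol, 100 genes had been added to channel 1 and another 100 genes to channel 2, each at that amount. At 0 pmol nothing had been added. Per the labels, the groups did not differ in genotype or treatment of the cells. Separate cultures are not mentioned in the labels, and p-values therefore cover array-to-array spread that may be technical only. In the main test, the SE and p-value of a feature use 1 spread shared by all amounts over the 51 arrays. It is not the spread of the 12 arrays alone.

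In a 2-colour array each spot reports the ratio of the channels. RNA present equally in both gives a log2 ratio near 0, so a self-hybridisation carries no information on how strongly the hybridoma expresses a gene. A gene spiked into only 1 channel pulls its spot away from 0, and genes spiked into the other channel move the opposite way. The spike therefore sets the truth against which methods for finding changed genes can be compared, which is the stated topic of the series. The ratios below describe added RNA and hybridisation, and gene functions are given only to say what each probe is for. Neither the identity of the spiked genes nor the channel in the numerator is given in the sources used here, so values are called positive or negative. All values are log2 ratios centred on the array median and averaged over the paired spots of a probe, and all differences are 0.25 minus 0 pmol.

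The arrays at 0.25 pmol measured from 16271 to 16805 of 16896 spots, and those at 0 pmol from 15990 to 16746. Paired spots of a probe correlated with r of 0.830 to 0.942 at 0.25 pmol and 0.617 to 0.805 at 0 pmol. Spots at the deposited upper limit were unevenly spread: 190 and 68 on replicates 1 and 2 at 0.25 pmol, and 138 to 151 on replicates 4 to 6 at 0 pmol, against 2 to 18 on the other arrays. At most 3 such spots on any array belonged to the 2 pmol list, a list of 200 features explained with its results. Outside that list, pairs of arrays correlated with r of 0.177 to 0.58 within 0.25 pmol and 0.18 to 0.753 within 0 pmol. Replicates 4 to 6 at 0 pmol stood apart, with r of 0.721 to 0.753 among themselves. Between the groups r ran from -0.214 to 0.451. Replicates 4 to 6 at 0 pmol correlated with replicate 1 at 0.25 pmol at 0.403 to 0.451, with replicate 2 at 0.29 to 0.30 and with replicate 3 at -0.214 to -0.191. Deposited ratios of exactly 0 were also uneven, with 234 to 405 spots on replicates 1 to 3 at 0.25 pmol and 180 to 236 on replicates 4 to 6 at 0 pmol, against 3 to 8 on the other arrays. The labels name no batch.

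Galnt13, which adds the first sugar of mucin-type O-glycans, had the largest positive difference among genes with a symbol. Its probe at spot 7846 had a lowest, median and highest log2 ratio of 6.77, 8.15 and 8.53 at 0.25 pmol. The corresponding values at 0 pmol were -1.21, -0.38 and -0.11 over the 5 arrays that measured it. The groups did not overlap, and replicate 5 was the lowest of the spiked arrays. Galnt13 averaged 7.95 ± 0.68 over the 6 spiked arrays and -0.62 ± 0.53 over the 5 unspiked ones (SD), and the difference was 8.57 ± 0.54 (SE; limma adjusted p 8.66e-16). The paired spots gave nearly the same value on each spiked array, for example 6.85 and 6.69 on replicate 5.

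Fem1c, which recruits substrates to a cullin ubiquitin ligase, had the largest negative difference. Its probe at spot 15721 had a lowest, median and highest log2 ratio of -7.22, -6.01 and -4.77 at 0.25 pmol, against -0.61, -0.20 and -0.012 at 0 pmol. All spiked arrays lay below all unspiked ones, with replicate 3 lowest and replicate 5 nearest to 0. The difference was -5.72 ± 0.61 (SE; limma adjusted p 1.39e-09). Its other probe, at spot 2642, differed by -4.21 ± 0.77 (SE; limma adjusted p 7.73e-05). That SE uses the spread shared by all amounts, while the SD of the probe was 2.82 at 0.25 pmol and 0.24 at 0 pmol. On 5 of the 6 spiked arrays that probe lay between -6.44 and -4.47, while on replicate 1 it stood at 1.32, which is a deposited ratio of exactly 0 from a single spot after centring. The second probe of Galnt13, at spot 11444, has the same 1.32 on that array for the same reason. At 0 pmol the Fem1c probe lay between -0.43 and 0.25, so that the groups overlapped through that value alone. With deposited values of exactly 0 left out, an alternative chosen after seeing the data, the difference was -5.33 (limma adjusted p 3.7e-09). With replicates 1 to 3 only, that value included, the probe did not pass (-3.44, limma adjusted p 0.0719).

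Iqgap2, a scaffold protein that binds actin and small GTPases, followed. Its probe at spot 7941 had a lowest, median and highest log2 ratio of -6.43, -5.09 and -4.25 at 0.25 pmol, against -0.050, 0.56 and 0.77 at 0 pmol. The groups did not overlap, with replicate 4 farthest from 0 and replicate 5 nearest. The difference was -5.63 ± 0.42 (SE; limma adjusted p 4.57e-14).

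Among the next positive features, Tlr1, a receptor for bacterial lipopeptides, had 5.86, 6.70 and 7.82 as its lowest, median and highest log2 ratio at 0.25 pmol, against -1.77, -0.70 and -0.32 at 0 pmol. Zfp292, a zinc finger protein, had 5.61, 6.95 and 8.17 at 0.25 pmol, against -0.998, -0.48 and -0.20 at 0 pmol. The actin-binding caldesmon Cald1, at spot 757, had 4.26, 5.66 and 6.53 at 0.25 pmol, against -2.82, -1.17 and -0.13 at 0 pmol. Their differences were 7.64, 7.53 and 6.86, and part of that of Cald1 came from a 0 pmol mean of -1.32. The membrane proteins Sspn (sarcospan, of the dystrophin complex), Tpbg (trophoblast glycoprotein), Slc2a5 (the fructose transporter) and Clcn5 (an endosomal chloride and proton exchanger) differed by 6.13, 5.73, 5.65 and 5.21. The RNA-binding proteins Cpsf6 (mRNA cleavage factor), Eif4a1 (helicase of translation initiation) and Snd1 (a nuclease-domain protein) differed by 5.61, 5.41 and 5.21. Mreg (melanoregulin), E2f4 (a repressor of cell cycle genes), Cct6a (a chaperonin subunit) and Cdc42bpg (a kinase) differed by 5.54, 5.49, 5.28 and 5.24. The 15 positive named genes were chosen as called features with the largest differences, so small p-values and little overlap follow largely from that choice. All had non-overlapping groups and adjusted p in limma of at most 1.61e-09. Over features measured on all 12 arrays, 5.1% had every spiked array above every unspiked one.

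Among the next negative features, Slc25a44, a mitochondrial amino acid carrier, had -6.16, -5.54 and -4.26 as its lowest, median and highest log2 ratio at 0.25 pmol, against -0.25, -0.030 and 0.27 at 0 pmol. Prkaca, the catalytic subunit of protein kinase A, had -5.29, -4.86 and -3.93 at 0.25 pmol, against 0.31, 0.55 and 0.78 at 0 pmol. Tec, a tyrosine kinase of lymphocytes, had -7.17, -6.07 and -5.34 at 0.25 pmol, against -2.34, -0.68 and -0.25 at 0 pmol. Their differences were -5.32, -5.27 and -5.15. Slc25a44 averaged -4.52 at 2 pmol but is not on the 2 pmol list. That list takes only features measured on all 3 arrays at 2 pmol with one sign on each. The transcription factors Sox11 and Nr3c1 (the glucocorticoid receptor) differed by -5.11 and -4.80, and the zinc finger protein Zfp330 by -5.06. Papola (poly(A) polymerase), Topbp1 (a replication checkpoint protein), Cmpk1 (a nucleotide kinase) and Nagk (N-acetylglucosamine kinase) differed by -4.91, -4.71, -4.70 and -4.66. Nostrin, Dock5 (an activator of Rac) and Cd22 (an inhibitory receptor of B cells) differed by -4.60, -4.50 and -4.47. The 15 negative named genes were chosen in the same way. All had non-overlapping groups and adjusted p in limma of at most 1.13e-05. Over features measured on all 12 arrays, 3.37% had every spiked array below every unspiked one. The leading features without a symbol were at spots 839 (5.43) and 3580 (5.34) on the positive side and at spots 13160 (-4.35) and 16194 (-4.10) on the negative side. The feature at spot 8362, singled out after its value was seen, differed by 7.72 but was measured on only 4 unspiked arrays.

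**Figure D1:**
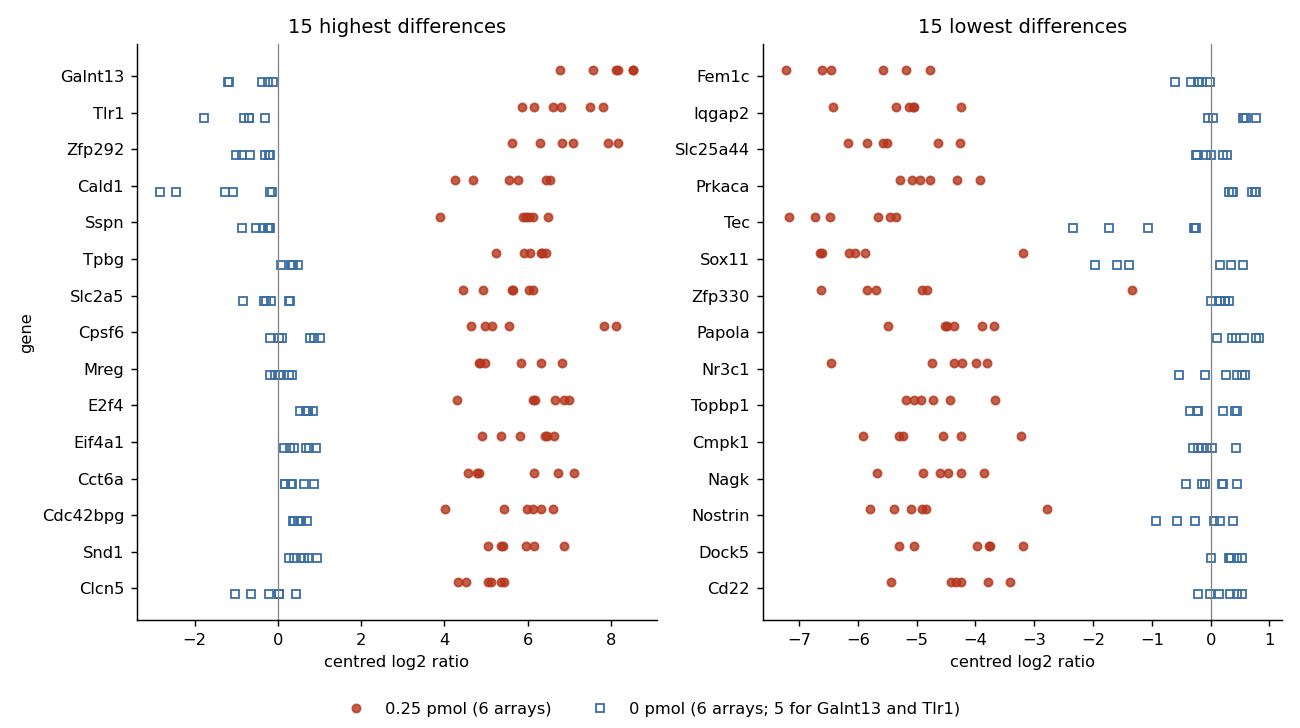
Centred log2 ratio (axis) of the 15 most positive and the 15 most negative named genes (rows), with 1 point per array at 0.25 pmol and at 0 pmol. The genes were chosen as called features with the largest differences, and the groups do not overlap for any of the 30. Zfp330 has a single spiked array, at -1.34, far from the other 5.

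In all, 1031 of 7920 features tested passed the limma test at an adjusted p under 0.05, which is 13.0% of them. Of these, 711 (8.98%) had a positive and 320 (4.04%) a negative difference. Without centring the arrays, 423 were positive and 65 negative, so positive calls made up 86.7% of calls in place of 69.0%, and the median difference of all features was 0.70 in place of 0.045. Differences of at least 2 log2 units (4-fold) were fewer and more even, with 132 positive (1.67%) and 87 negative (1.1%). Of 7181 features measured on all 12 arrays, 366 (5.1%) had every spiked array above every unspiked one, and 242 (3.37%) the reverse.

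Since the spiked genes are not named, the features farthest from 0 at the top amount served as a list of likely ones. The 2 pmol list was drawn from features measured on all 3 arrays at 2 pmol with one sign on each. It holds the 100 with the highest mean there and the 100 with the lowest. Neither the 0.25 nor the 0 pmol arrays entered that choice. At 0.25 pmol, 95 of the 100 positive members passed with a positive difference and 89 of the 100 negative members with a negative one, and no member passed in the opposite direction. The 184 members called compare with 13.0% of all features. Positive members differed by 0.78 to 8.57 with a median of 3.74, and negative ones by -5.72 to -0.17 with a median of -2.89. The median over all features was 0.045. Of the positive members 83 passed with at least 2 log2 units, and of the negative members 72. Leaving out each of the 12 arrays in turn left between 173 and 186 members called.

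**Figure D2:**
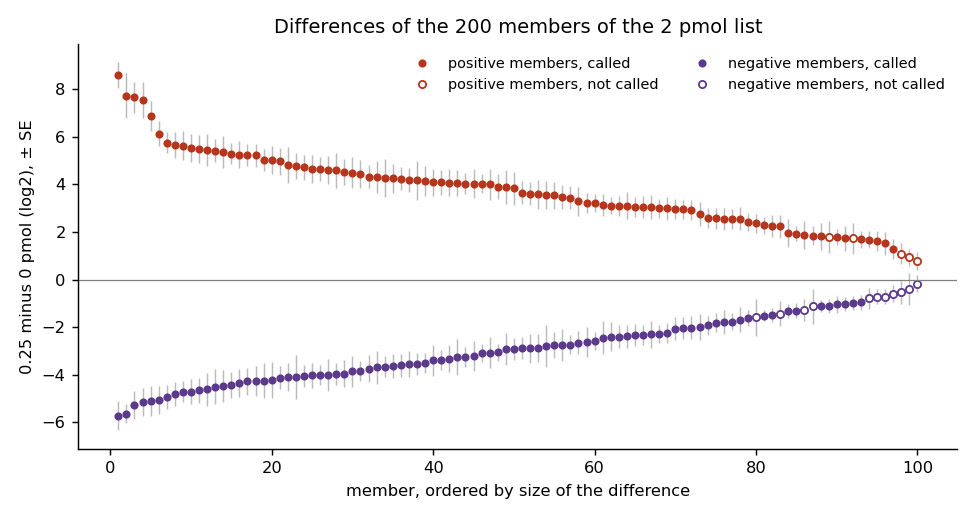
Difference 0.25 minus 0 pmol in log2 units (vertical axis, point with its SE) for the 200 members of the 2 pmol list, ordered by the size of the difference (horizontal axis). Filled points are the 95 positive and 89 negative members called in limma, and open points are those not called, which lie toward the small differences.

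At the border of the list, Ddx50, an RNA helicase at spot 12326, was the last positive member, with a mean of 3.99 at 2 pmol and a difference of 1.09 at 0.25 pmol. Usf1, a transcription factor at spot 755, lay just outside with 3.89 at 2 pmol and a difference of 3.52. On the negative side Stmn2, a microtubule regulator at spot 8016, was the last member with -2.44 and a difference of -1.78. Smpd4, a sphingomyelinase at spot 16377, lay just outside with -2.43 and a difference of -2.04. The ratios at 2 pmol thus showed no gap at either border.

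The 5 members with a symbol nearest to no difference were all on the negative side, and none of them passed in limma. Zfp655, a zinc finger protein, had a lowest, median and highest ratio of -1.54, -0.69 and 0.21 at 0.25 pmol, against -1.65, -0.25 and -0.021 at 0 pmol. Rasa1, a GTPase activator of Ras, had -2.71, -0.84 and 0.004 at 0.25 pmol, against -0.86, -0.54 and -0.25 at 0 pmol. The groups overlapped in both. The others were Lama4, a laminin chain (-0.71), Chst11, a chondroitin sulfotransferase (-0.73), and 1700025G04Rik (-0.79), with limma adjusted p of 0.120, 0.121 and 0.253. For Rasa1, Chst11 and 1700025G04Rik the mean over replicates 1 to 3 at 0.25 pmol was -1.99, -1.18 and -1.45, and over replicates 4 to 6 it was -0.20, -0.36 and 0.076.

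The separation of an array is the median of the positive members minus that of the negative members, divided by 2. At 0.25 pmol it was 2.86, 3.16 and 3.29 on replicates 1 to 3 and 4.09, 2.81 and 4.17 on replicates 4 to 6. At 0 pmol it lay between -0.016 and 0.086. It averaged 3.40 ± 0.60 at 0.25 pmol, against 0.038 ± 0.034 at 0 pmol (SD, n = 6 each). Replicates 4 and 6 had the widest separation, while replicate 5 had the narrowest. Replicate 5 was the spiked array nearest to 0 for 50 of the 100 positive and 50 of the 100 negative members. Replicate 6 was farthest for 39 positive members and replicate 4 for 40 negative ones. The spiked arrays differed in the values of the members: the median SD of a positive member was 0.99 at 0.25 pmol and 0.28 at 0 pmol, and of a negative member 0.84 and 0.32, against 0.42 and 0.37 for all features. Over the 200 members, pairs of spiked arrays correlated with r of 0.876 to 0.974, which rests largely on the gap between the positive and the negative members. Within the positive members alone r was 0.618 to 0.844 among replicates 1 to 3 and 0.861 to 0.913 among replicates 4 to 6. Between these sets it was 0.429 to 0.70. Within the negative members alone the corresponding ranges were 0.61 to 0.806, 0.749 to 0.843 and 0.576 to 0.79. For members of both signs, the range between the sets overlapped that among replicates 1 to 3.

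**Figure D3:**
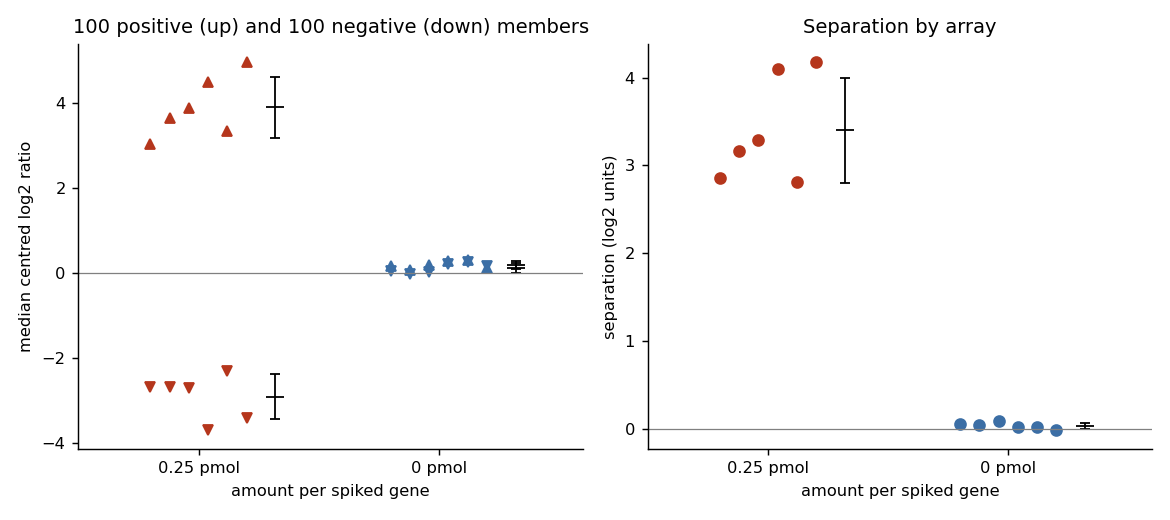
Median centred log2 ratio of the positive and of the negative members of the 2 pmol list on each array (left panel) and their separation in log2 units (right panel), with 1 point per array in order of replicate number and the mean ± SD beside each group. Separation is 2.81 to 4.17 at 0.25 pmol and -0.016 to 0.086 at 0 pmol.

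Calls outside the list were many, and most were smaller than those of its members. Of 7720 other features 847 passed (11.0%), 616 positive and 231 negative, with a median absolute difference of 1.03, against 3.54 for the members called. Features just outside the list were called more often, with 72 of the next 100 at 2 pmol called positive and 26 of the next 100 on the negative side called negative. Among all 847 calls outside the list, at least 2 log2 units were reached by 49 positively and 15 negatively. In 551 of the 847 the mean at 0 pmol lay farther from 0 than the mean at 0.25 pmol, while this held for 2 of the 184 members called. These 551 features thus had a mean ratio off 0 on the arrays that carry no spike. When the mean at 0.25 pmol was tested against 0, 182 of the 184 members and 264 of the 847 others passed as well. Replicates 1 to 3 alone gave 446 calls over all features and replicates 4 to 6 alone 1207. The part of the array correlation among replicates 4 to 6 at 0 pmol in these calls was not tested.

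**Figure D4:**
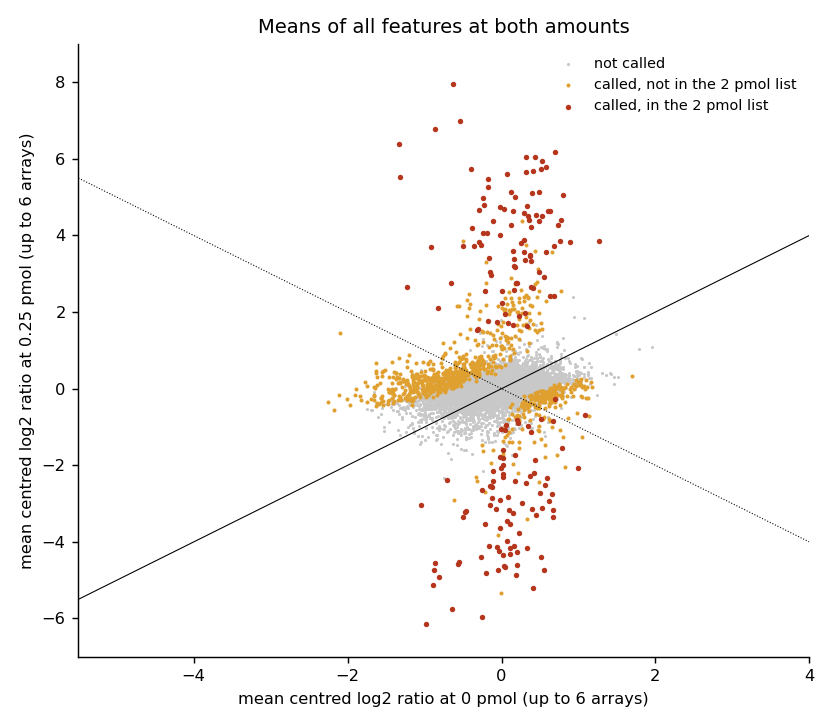
Mean centred log2 ratio at 0.25 pmol (vertical axis) against the mean at 0 pmol (horizontal axis) for all features, with called members of the 2 pmol list and other called features marked. The solid line marks equal means and the dotted line means of equal size and opposite sign. Most members lie far from 0 at 0.25 pmol and near 0 at 0 pmol, whereas 551 of the 847 other called features lie farther from 0 at 0 pmol.

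In most genes with several tested probes and a called one, another probe was not called. Among 843 genes with several tested probes, 205 had at least 1 called, and in 196 of these only some probes were called. All probes were called in 9 genes, and in 6 of those they had one direction. Probes were called in opposite directions in 9 genes. These counts stand beside 13.0% of all features called. With that share, most genes with a called probe would have another not called even if their probes were unrelated. Differences between probes of a gene were not tested. The second probes of Galnt13 (spot 11444, 0.20, limma adjusted p 0.801) and Iqgap2 (spot 10827, 0.26, limma adjusted p 0.488) did not pass. Neither did those of Zfp292 (spot 2524, -0.39), Sspn (spot 10136, 0.53) and Papola (spot 10401, -0.06). Sox11 and Nr3c1 each had 1 of 2 probes called. Cald1 had 5 probes: 1 was called positive (6.86), 1 negative (spot 12991, -1.11, limma adjusted p 0.0111), and 3 were not called. Without replicate 3 at 0.25 pmol the negative one no longer passed (-0.90, limma adjusted p 0.0609). Fem1c was the exception among the genes with the largest differences, with both of its probes negative. Probe sequences were not used here.

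**Figure D5:**
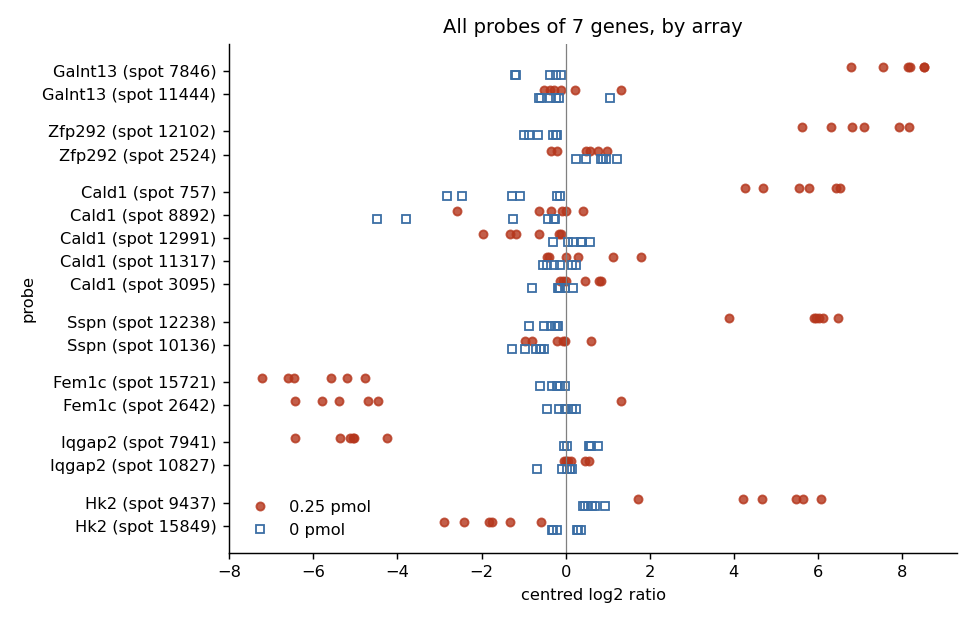
Centred log2 ratio on each array at 0.25 pmol and at 0 pmol for every probe of the 6 genes with the largest difference of any probe among genes with several probes, and of Hk2. In Fem1c both probes lie far below 0 at 0.25 pmol on nearly all arrays, the probes of Hk2 lie on opposite sides of 0, and each of the other genes has a single probe with a large difference.

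The gene lists chosen for a hybridoma and its possible admixtures held few probes, and many of the called members were also on the 2 pmol list. Their members were chosen with earlier results of these data known and include leading genes given above, such as Tec, Galnt13 and E2f4. Counts called in the lists follow partly from that choice. Of 6 B cell and plasma cell probes, 2 were negative, Tec and Cd22. Of 6 probes of T cell, NK cell and myeloid markers, 1 was positive and 2 negative: Cd3e of the T cell receptor complex (2.10), Ms4a4b (-3.86) and Tcra, the T cell receptor alpha chain (-2.78). The positive difference of Cd3e came with a mean of 0.47 at 0.25 pmol and -1.63 at 0 pmol. Tcra had a mean of -3.85 over replicates 1 to 3 and -1.05 over replicates 4 to 6 at 0.25 pmol, and it no longer passed without 5 of the 12 arrays in turn (replicates 1, 2 or 3 at 0.25 pmol, or 5 or 6 at 0 pmol), with differences of -2.71 to -2.38. Of 12 probes for epithelial, stromal, muscle, liver and neural genes 4 were positive: the keratin Krt18 (2.99), the collagen Col1a2 (1.19), the synaptic vesicle protein Syt1 (1.14) and the microtubule protein Map2 (0.97). Krt18 read -0.032 on replicate 3 at 0.25 pmol, and Col1a2 no longer passed without replicate 4 at 0 pmol (0.82, limma adjusted p 0.0742). The other Col1a2 probe, at spot 11620, did not pass (0.61, limma adjusted p 0.184). Over all features 13.0% were called, 8.98% positive and 4.04% negative, and with 6 to 12 probes a list 1 call moves its share widely. The median differences of the 3 lists were -0.003, 0.099 and 0.30, beside 0.045 for all features. A ratio between channels of one RNA carries no level, so the cell type could not be checked from these markers.

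In glycosylation 3 of 21 probes passed: Galnt13 and its relative Galnt1 (2.89) were positive and Nagk was negative. This count and those of the next 3 lists stand beside 13.0% of all features called, but these lists too were chosen with earlier results known. Galnt1 had a lowest, median and highest ratio of 1.25, 2.35 and 4.23 at 0.25 pmol, against -1.24, -0.34 and 0.095 at 0 pmol. In ubiquitin conjugation 5 of 26 passed, 2 positive and 3 negative. Beside both Fem1c probes, Rbx1, the RING subunit of cullin ligases, was negative (-1.19), with -0.81 ± 0.44 at 0.25 pmol and 0.37 ± 0.15 at 0 pmol (SD, n = 6 each). The cullin Cul1 was positive (1.17), but its means were -0.30 at 0.25 pmol and -1.46 at 0 pmol, and without replicate 3 at 0 pmol it did not pass (0.64, limma adjusted p 0.137); nor did it without replicate 3 (1.02) or 6 (1.13) at 0.25 pmol. In the list of actin and dystrophin complex genes 5 of 31 passed, 3 positive and 2 negative. These were Cald1 with 2 probes, Sspn, Iqgap2 and Wasl, an activator of actin branching (1.38), whose mean was -0.087 at 0.25 pmol and -1.46 at 0 pmol. In mRNA 3-prime end processing Cpsf6 and 1 of 2 Papola probes passed, in opposite directions, of 7 probes.

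Of 12 cell cycle probes 4 passed, 2 each way, beside 13.0% over all features. This list and those below were also chosen with earlier results known. E2f4 and the mitotic kinesin Kif11 (0.93) were positive, and Topbp1 and the mitotic kinase Plk1 (-0.85) were negative. The other Kif11 probe, at spot 3216, did not pass (0.425, limma adjusted p 0.291). Plk1 had a mean of 0.048 at 0.25 pmol and 0.90 at 0 pmol, and it did not pass without replicate 3 at 0.25 pmol (-0.68, limma adjusted p 0.0711). In glycolysis 4 of 11 passed. The hexokinase Hk2 was positive at spot 9437 (4.03) and negative at spot 15849 (-1.82). The phosphofructokinases Pfkm (-1.05) and Pfkp at spot 7145 (-0.76) were negative. The Pfkp probes at spots 5028, 8117 and 9524 did not pass (-0.38, -0.17 and -0.56). Pfkm did not pass without replicate 4 at 0.25 pmol (-0.95, limma adjusted p 0.0515). Nor did Pfkp at spot 7145 without any one of 5 arrays (-0.73 to -0.66). In oxidative phosphorylation the complex I subunit Ndufa2 (-3.75) was called among 4 probes. None of 7 probes for folding and secretion in the endoplasmic reticulum and neither of 2 ribosomal protein probes passed in limma, and 1 of each had an unadjusted p under 0.05.

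Several of these calls depended on the settings. Without centring, Tcra, Col1a2, Map2, Kif11, Plk1, Pfkm, Pfkp, Rbx1, Hk2 at spot 15849 and Cald1 at spot 12991 did not pass (limma adjusted p 0.0678 to 0.914). With replicates 1 to 3 only, Galnt1 (2.13), Wasl (1.54), Map2 (0.95) and Hk2 at spot 15849 (-1.55) were among 12 that did not pass, and with replicates 4 to 6 only, Kif11 (0.43) and Syt1 (0.94) were among 6. When the mean at 0.25 pmol was tested against 0, Cd3e, Col1a2, Map2, Syt1 and Pfkp did not pass (limma adjusted p 0.0739 to 0.542), while Cul1, Plk1 and Wasl turned their sign. Neither Col1a2 nor Cul1 passed in a fit of the 12 arrays alone or with discordant spot pairs left out (0.20 and 0.64 with the pairs left out), and Cul1 did not with arrays scaled to one spread (1.03).

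Against the neighbouring amounts no feature was called on centred arrays, not scaled to one spread, with the fit of all 51 arrays. With arrays scaled to one spread, 1 feature was called against 0.5 pmol. In 0.25 minus 0.2 pmol none of 7915 features passed in limma, and 146 (1.84%) had an unadjusted p under 0.05. In 0.25 minus 0.5 pmol none of 7920 passed, and 558 had an unadjusted p under 0.05, with a lowest adjusted p of 0.232. Without centring 5321 features, all negative, were called against 0.5 pmol. Galnt13 averaged 7.95 at 0.25 pmol, against 5.89 ± 0.78 on the 3 arrays at 0.2 pmol and 6.76 ± 1.40 on the 6 at 0.5 pmol (SD). Its difference from 0.2 pmol had a 95% interval of 0.79 to 3.33 before adjustment and did not pass after it. Galnt13 stands out by its large difference at 0.25 pmol, and that choice itself favours a high mean there. Fem1c at spot 15721 averaged -5.97 at 0.25 pmol, against -5.09 at 0.2 and -6.15 at 0.5 pmol, with an interval of -1.05 to 1.42 for the difference from 0.5 pmol. Iqgap2 averaged -5.21 at 0.25 pmol, against -4.63 at 0.2 and -4.88 at 0.5 pmol, with an interval of -1.17 to 0.51 for the difference from 0.5 pmol. Over the list, the median difference of the positive members was 0.19 from 0.2 pmol and 0.14 from 0.5 pmol, and that of the negative members -0.088 and 0.57. In 0.25 minus 0.5 pmol, 81 of the 100 negative members lay above 0. For a negative ratio this is nearer to 0 at 0.25 pmol. Of the 100 positive members 61 also lay above 0, which for a positive ratio is farther from 0 at 0.25 pmol. Against 0.5 pmol, 23 of the 100 positive and 23 of the 100 negative members had an unadjusted p under 0.05, beside 7.05% of all features. Against 0.2 pmol these were 13 positive and 2 negative members, beside 1.84% of all features. The median standard errors of a member were 0.49 to 0.62.

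The members were not spread evenly over the array. Print columns 7, 8, 20 and 21 of each block, noticed after the values were seen, held 100 of the 200 members and 19.4% of all features. Among features that are not members, 13.0% of those beside a positive member were called, 8.12% beside a negative one, and 11.0% beside none. Between print blocks the share of other features called ran from 1.88% to 24.2%, with a median of 10.8%.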

How the data were processed

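Per the labels, RNA of the hybridoma was hybridised in both channels of each array. The deposited values are log2 ratios, 1 for each spot of an array; the log base was read from the values, and scanner settings, background correction, normalization and genome build are not given in the sources used here. The 16896 spots form 48 print blocks of 352. Values of 16.61 (log2 of 100000) are an upper limit, occurred 1074 times and were treated as missing. Each array was centred on its median, spots 22 apart were averaged (8448 pairs, 5458 with the same listed accession and 0 with different ones), and 528 control probes were left out, leaving 7920 features. A single symbol was listed for 5348 of them and none or several for 2572; symbols were updated through Entrez identifiers with RefSeq genes of GRCm38.p6, used for names only (10766 spots matched).

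Features measured on at least 2 arrays of each group were tested with limma 3.58.1 (R 4.3.3) fitting all 51 arrays together with a mean for each amount, then eBayes and two-sided tests at a Benjamini-Hochberg adjusted p under 0.05; the fit was tested on simulated data. Depth does not apply to arrays, and their number limits the precision. Named genes were, among called features with a symbol that were measured on at least 5 arrays of each group and had one sign on the spiked arrays, the 15 highest and 15 lowest differences. At most 2 features without a symbol each way, up to 4 called members of each gene list, the 5 list members nearest to no difference, and all probes of the 6 leading genes with several probes were added. The members of the lists were chosen with earlier results of these data known. Same-numbered arrays of both groups did not deviate together (r of -0.267 to 0.027), so replicate numbers were not taken as pairs. Alternatives were other scaling, other handling of the upper limit, of values of exactly 0 and of discordant spots, fits of fewer arrays, a replicate block, and leaving out each array. Plots used matplotlib 3.10.9 (Python 3.11.15).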

Additional observations from a re-analysis of the deposited data

Results flagged for a closer look

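In 16 of 129 groups of 6 arrays that were examined, 1 array stood far from the other 5 by Dixon's criterion, which chance meets in about 1 in 20 groups. At 0.25 pmol, replicate 5 was the array nearest to 0 for Sspn at spot 12238 (3.88), Sox11 (-3.19) and Nostrin (-2.79), and it also had the narrowest separation of the 2 pmol list. Replicate 3 was nearest to 0 for E2f4 (4.29), Zfp330 (-1.34) and Krt18 (-0.032). The paired spots were alike for Zfp330 (-1.30 and -1.37) and Krt18 (0.005 and -0.068) but not for E2f4 (6.13 and 2.45). Replicate 4 was farthest from 0 for Nr3c1 (-6.45), Pfkm (-1.37) and the Cald1 probe at spot 8892 (-2.59). For Nr3c1 the paired spots of replicate 4 were alike (-6.47 and -6.43), while those of replicate 6 were far apart (-6.83 and -1.91). Fem1c at spot 2642 stood at 1.32 on replicate 1, a deposited ratio of exactly 0 from a single spot, and Lama4 read 1.49 on replicate 2. At 0 pmol, replicate 3 was lowest for Cul1 (-4.11) and Wasl (-3.25). The paired spots there were far apart for Cul1 (-2.49 and -5.74) and for Wasl (-1.4 and -5.1). Replicate 2 was lowest for the second probe of Iqgap2 at spot 10827 (-0.67) and for Zfp655 (-1.65). Replicate 6 was highest for the second probe of Galnt13 at spot 11444 (1.06), which averages a deposited 0 with another spot.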

How the results depend on the processing

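The count of 1031 features called between 0.25 and 0 pmol was 488 without centring, 627 with a replicate block (434 positive and 193 negative) and 446 with replicates 1 to 3 only; the cause was not tested. Under the other settings, including leaving out any of the 12 arrays (719 to 1137), it stayed within 1.5 times. The count of list members called stayed within 1.5 times under every setting, from 149 with replicates 1 to 3 only to 194 with the 0.25 pmol mean tested against 0. Between 0.25 and 0.2 pmol, 11 features were called with a replicate block on replicates 1 to 3 and 0 to 1 when an array was left out. Between 0.25 and 0.5 pmol, 1 was called with arrays scaled to one spread, 5321, all negative, without centring (which moved the median of all features to -1.36), and 0 to 5 when an array was left out. The separation at 0.25 pmol averaged 4.44 with 50 members in each direction and 1.99 with 200, and at 0 pmol it averaged 0.076 with 200. The replicate block also ended the calls of Col1a2, Cul1, Kif11, Pfkp and Plk1. Tested against 0 in place of the unspiked arrays, 3 named features turned their sign: Cul1 (-0.30), Plk1 (0.048) and Wasl (-0.086). Among the values of named features under all alternatives, 1444 stayed on the same side with the same direction, 60 were weaker and 6 stronger. With deposited values of exactly 0 left out, chosen after seeing the data, 1035 features and 184 list members were called. The number of arrays limits the precision, signal over background was not analysed here, and array replicates without a stated culture cannot show biological spread.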
